A study of Mus musculus with 11 samples.

Results

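The 10 genes described here carry out antigen presentation, and they were chosen by name from the 46603 genes of the count table: 7 of the MHC class II route and 3 of MHC class I. MHC class II molecules are pairs of an alpha and a beta chain (*H2-Aa* with *H2-Ab1*, and the beta chain *H2-Eb1*) that hold peptides from engulfed proteins at the surface of macrophages, dendritic cells and B cells for CD4+ T cells. The invariant chain *Cd74* escorts newly made class II pairs and blocks their groove, the H2-DM pair (*H2-DMa*, *H2-DMb1*) exchanges its last fragment for peptide, and *Ciita* is the coactivator on which transcription of the whole route depends. Class I molecules (*H2-K1* and *H2-D1*, each with the light chain *B2m*) are carried by nearly all cells, hepatocytes included, and show peptides from the cell's own proteins to CD8+ T cells.

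The libraries were polyA RNA-seq of whole liver, 1 library per liver, from male mice of the strain B6.V-Lep ob/JRj, which lack leptin (*ob/ob*). From 5 to 6 weeks of age, all mice ate the AMLN diet (high in trans-fat, fructose and cholesterol) for 15 weeks before treatment and throughout it, and all had steatosis and fibrosis on a biopsy before treatment, which models metabolic dysfunction–associated steatohepatitis (MASH). The 4 mice of the INT-767 group then received INT-767 as a daily oral dose of 10 mg/kg over 8 weeks. This compound is derived from a bile acid and activates the receptors FXR and TGR5. The 7 mice of the Vehicle group were gavaged with 0.5% carboxymethyl cellulose alone. No lean, untreated or chow-fed group was analysed here, so the comparison is between treated and vehicle-treated diseased livers. Total counts ranged from 7966963 to 15295230 in Vehicle and from 7381211 to 16022459 in INT-767 livers.

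In INT-767 livers, several MHC class II transcripts were lower and the class I heavy chain *H2-K1* was, in 3 of 4 mice, above every Vehicle liver. Of the 7 class II genes, 4 passed the test as lower (*Ciita*, *Cd74*, *H2-Eb1* and *H2-DMa*, between 0.46 and 0.618 times the Vehicle level), against a background of 4.68% of all 13880 tested genes called lower. Of the 3 class I genes, *H2-K1* passed as higher (1.79 times), against a background of 5.04% called higher. The fold changes of all 7 class II genes were below 0 and those of all 3 class I genes above 0, with medians of -0.69 and 0.63 on the log2 scale, beside -0.01 over all genes tested. Scaling to library size alone moved the median of all genes to -0.22, of the class II genes to -0.91 and of the class I genes to 0.39, and changed the split of all calls from 649 lower and 700 higher to 1026 lower and 331 higher.

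The class II chain genes lie together on mouse chromosome 17 (build GRCm38), with *H2-DMa* at chr17:34119541-34139101, *H2-DMb1* at chr17:34153072-34160230, *H2-Ab1* at chr17:34257689-34269419, *H2-Aa* at chr17:34282744-34287823 and *H2-Eb1* at chr17:34305867-34316674. The class I genes *H2-K1* (chr17:33996017-34000347) and *H2-D1* (chr17:35262730-35267499) lie on either side of them. *B2m* (chr2:122147686-122153083), *Ciita* (chr16:10480059-10528418) and *Cd74* lie on other chromosomes.

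The class II promoters share a module of X and Y boxes, which the RFX complex and NF-Y bind and on which CIITA acts. Stretches from 150 to 31 bases before the start are shown for 3 class II genes and 2 class I route genes because the letters of these boxes can be read in them beside the measured levels. The sequences are RefSeq's (GRCm38.p6), each written 5′ to 3′ along its gene. Capitals mark matches, on either strand, to the Y box core CCAAT, to its longer form TGATTGG (which contains the core on the other strand), to the X1 box letters AGNNACNGA and to the interferon-stimulated response element letters GAAANNGAA.
H2-Aa: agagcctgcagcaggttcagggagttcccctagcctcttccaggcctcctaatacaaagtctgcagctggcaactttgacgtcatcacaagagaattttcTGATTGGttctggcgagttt
H2-Eb1: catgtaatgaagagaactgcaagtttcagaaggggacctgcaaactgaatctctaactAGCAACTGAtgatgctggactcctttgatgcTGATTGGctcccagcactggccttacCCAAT
H2-DMb1: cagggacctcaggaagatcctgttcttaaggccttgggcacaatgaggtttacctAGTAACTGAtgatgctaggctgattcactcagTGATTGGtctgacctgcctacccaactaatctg
H2-D1: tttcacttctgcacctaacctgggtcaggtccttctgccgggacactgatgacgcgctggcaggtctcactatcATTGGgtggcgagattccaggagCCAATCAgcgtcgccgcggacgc
B2m: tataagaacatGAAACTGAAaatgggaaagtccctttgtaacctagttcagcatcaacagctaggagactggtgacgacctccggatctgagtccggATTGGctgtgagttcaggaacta

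These stretches are chr17:34287854-34287973 on the minus strand for *H2-Aa*, chr17:34305717-34305836 on the plus strand for *H2-Eb1*, chr17:34153041-34153160 on the plus strand for *H2-DMb1*, chr17:35262944-35263063 on the plus strand for *H2-D1* and chr2:122147537-122147656 on the plus strand for *B2m*. TGATTGG stood from 50 to 44 bases before the start in *H2-Aa*, from 61 to 55 in *H2-Eb1* and from 63 to 57 in *H2-DMb1*. Read on the other strand, it also stood from 53 to 47 bases before the start in the class I gene *H2-D1*. It is in 7.82% of the 32851 promoter windows of the reference (250 bases before to 50 after a start). The X1 letters matched AGCAACTGA in *H2-Eb1* from 92 to 84 bases before the start and AGTAACTGA in *H2-DMb1* from 95 to 87 bases before it, and matched nothing in the *H2-Aa* window. On the other strand they also matched in *H2-DMb1*, upstream of the stretch shown, and in *B2m* from 3 to 11 bases after the start. They are in 17.7% of windows. The interferon element letters, present in 8.56% of windows, matched in *B2m* from 139 to 131 bases before the start. The shorter CCAAT is in 37.4% of windows, so that a match to it sets few promoters apart. *H2-K1*, with 2 starts in the table, had TGATTGG, read on the other strand, only closer to the start than the stretch shown for the others. *H2-DMa*, also with 2 starts, had a single CCAAT match and no other. A match is a description of letters and was not tied to binding in these livers.

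Before the comparison, 4 libraries stood apart from the other 7. In Vehicle 1, Vehicle 7, INT-767 2 and INT-767 4, genes with long transcripts were low against the mean of all libraries (Spearman's rho of the deviation with transcript length from -0.319 to -0.186), whereas in the other 7 it was positive (0.0936 to 0.315). Both groups hold 2 such libraries, which is a larger part of the 4 INT-767 than of the 7 Vehicle livers. A trend on GC content went more with treatment. Its rho was negative in every INT-767 liver (-0.262 to -0.0645), in Vehicle 1 (-0.428) and in Vehicle 7 (-0.127). In the other Vehicle livers it was positive (0.0134 to 0.445). No pair of libraries agreed within sampling noise, so all 11 were counted as separate mice. Calls below are for all 11 livers, and the members and lists are given again with a term for the 4 libraries, an alternative chosen after seeing the data. That term follows the trend on length, not the one on GC content. Offsets for both GC content and length, also chosen later, gave 3 members called lower and 1 higher. They called 825 genes lower and 1069 higher of 13835 tested.

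*Ciita*, the coactivator, had a fold change of about the size of that of *Cd74*, within their errors. Its level ranged from 5.35 to 12.7 CPM (counts scaled to a common library total) with a median of 7.93 in the 7 Vehicle livers, and was 4.38, 3.04, 4.22 and 3.29 CPM in INT-767 1 to 4. Every INT-767 liver thus lay below every Vehicle liver, as it did for 3.64% of all tested genes. The log2 fold change was -1.12 ± 0.24 (SE; n = 4 against 7; adjusted *p* = 0.0153 by edgeR), and the exact Mann-Whitney *p*, two-sided, was 0.00606, the smallest that 4 against 7 mice allow. The counts behind these values were small, from 22 reads in INT-767 2 to 175 in Vehicle 5. A gene on the other strand overlaps 3.45% of the *Ciita* exon bases, and whether counting used the strand is not given in the sources used here. *Ciita* missed the threshold without INT-767 2 (adjusted *p* = 0.0716) and when the trends of each library on GC content and transcript length were removed (-0.75, adjusted *p* = 0.054).

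*Cd74*, the invariant chain, had the most counts of the class II genes in 8 of the 11 livers, and *H2-Aa* had more in Vehicle 1, INT-767 2 and INT-767 4. It stood between 199 and 373 CPM (median 300) in Vehicle livers and at 166, 94.3, 189 and 111 CPM in INT-767 1 to 4. The groups did not overlap, with the highest INT-767 liver a little below the lowest Vehicle liver. The log2 fold change was -1.01 ± 0.25 (adjusted *p* = 0.0288; exact *p* = 0.00606). *H2-Eb1*, a class II beta chain, followed it closely: 78.8 to 136 CPM (median 110) in Vehicle livers, and 61.7, 43.2, 74.8 and 57.9 CPM in INT-767 1 to 4. Here too the groups were separate (log2 fold change -0.86 ± 0.22, adjusted *p* = 0.0299; exact *p* = 0.00606). The calls of both *Cd74* and *H2-Eb1* were lost when any 1 of Vehicle 3, Vehicle 5, Vehicle 6, INT-767 2 or INT-767 4 was left out, with adjusted *p* of up to 0.12 for *Cd74* and 0.126 for *H2-Eb1*.

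The chains of the A molecule, *H2-Aa* and *H2-Ab1*, had smaller fold changes and overlapping groups. *H2-Aa* ranged from 123 to 324 CPM (median 174) in Vehicle livers and was 114, 137, 145 and 181 CPM in INT-767 1 to 4. Its highest Vehicle values belonged to Vehicle 1 (324 CPM) and Vehicle 7 (292 CPM), both among the 4 libraries that stood apart. *H2-Ab1* ranged from 92 to 191 CPM (median 130) in Vehicle livers and was 73.8, 74.8, 94.9 and 140 CPM in INT-767 1 to 4. INT-767 4 was the treated liver with most of both chains. The log2 fold changes were -0.47 ± 0.27 for *H2-Aa* (adjusted *p* = 0.23) and -0.45 ± 0.25 for *H2-Ab1* (adjusted *p* = 0.214), neither past the threshold, and the exact *p* was 0.23 for each. With the term for the 4 libraries, both were called lower, *H2-Aa* at -0.55 ± 0.16 (adjusted *p* = 0.0192) and *H2-Ab1* at -0.55 ± 0.17 (adjusted *p* = 0.0281).

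The peptide-exchange chains were low in all livers. *H2-DMa* ranged from 9.09 to 14.4 CPM (median 11.2) in Vehicle livers and was 6.73, 5.38, 8.86 and 8.23 CPM in INT-767 1 to 4, with no overlap. Its log2 fold change was -0.69 ± 0.19 (adjusted *p* = 0.0414; exact *p* = 0.00606). This call was close to the threshold and was lost without any 1 of Vehicle 3, Vehicle 5, Vehicle 6, Vehicle 7, INT-767 1, INT-767 2 or INT-767 4, with adjusted *p* of up to 0.152, and a gene on the other strand overlaps 10.4% of its exon bases. *H2-DMb1* ranged from 6.85 to 14.9 CPM (median 12.2) in Vehicle livers and was 7.8, 7.45, 8.29 and 8.83 CPM in INT-767 1 to 4. The INT-767 values lay close together, inside the lower part of the Vehicle range, and the log2 fold change of -0.50 ± 0.21 did not pass (adjusted *p* = 0.126). Of the 75-base windows of *H2-DMb1* transcripts, 15.8% also occur in *H2-DMb2* or another gene, so its level is uncertain by the reads that the counting could not place.

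**Figure D1:**
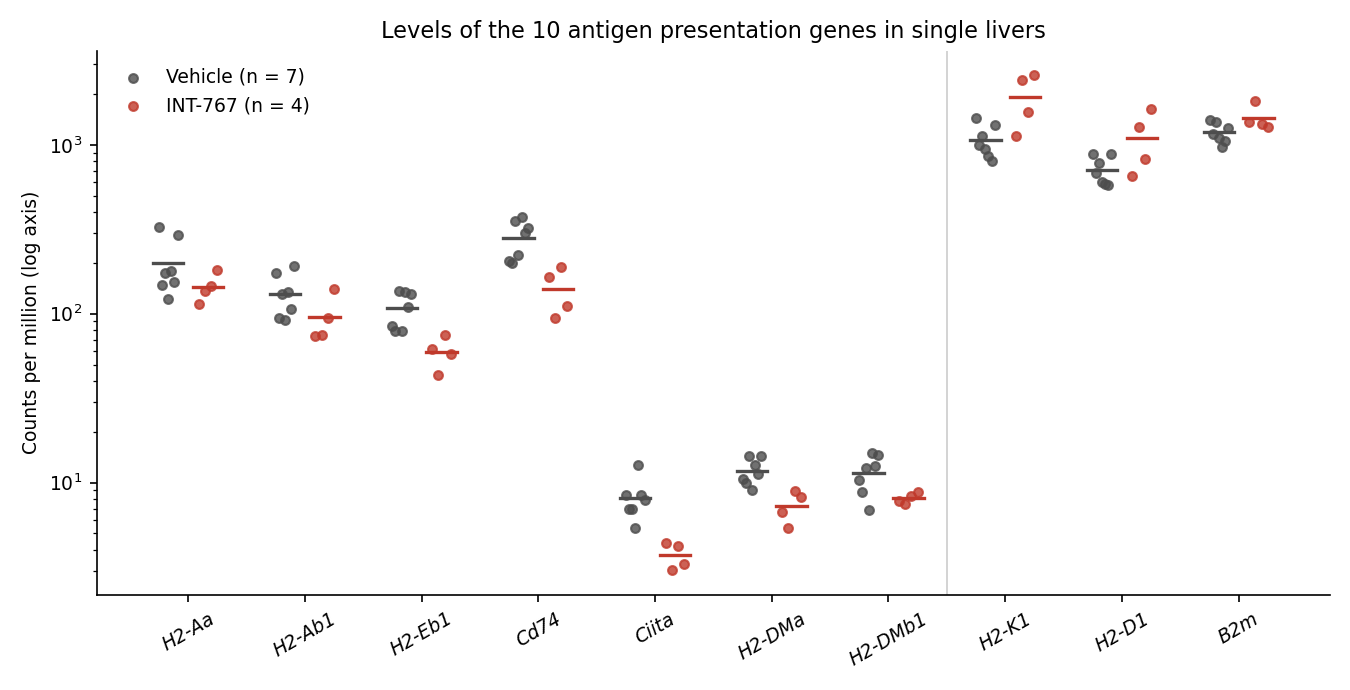
CPM (log axis) of the 10 genes in single livers, grey for Vehicle (n = 7) and red for INT-767 (n = 4), with a bar at each group's mean; class II genes stand left of the line and class I genes right of it. The groups are separate for *H2-Eb1*, *Cd74*, *Ciita* and *H2-DMa*, and overlap for the other genes.

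The class I fold changes lay on the other side of 0. *H2-K1* ranged from 805 to 1445 CPM (median 1000) in Vehicle livers and was 1122, 2428, 1556 and 2573 CPM in INT-767 1 to 4. INT-767 2 and INT-767 4 were far above all Vehicle livers and INT-767 3 just above them, while INT-767 1 lay inside the Vehicle range. The log2 fold change was 0.84 ± 0.24 (adjusted *p* = 0.0451; exact *p* = 0.0424). The call was lost without any 1 of Vehicle 2, Vehicle 3, Vehicle 4, Vehicle 5, Vehicle 6, INT-767 2 or INT-767 4 (adjusted *p* of up to 0.174), and with scaling to library size alone (0.61, adjusted *p* = 0.08).

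*H2-D1* was 653, 1268, 828 and 1640 CPM in INT-767 1 to 4, against 575 to 880 CPM (median 677) in Vehicle livers. The same 2 treated livers, INT-767 2 and INT-767 4, stood above the Vehicle range and the other 2 within it. Its log2 fold change of 0.63 ± 0.24 did not pass (adjusted *p* = 0.101), except without INT-767 1 (0.81, adjusted *p* = 0.0405). Without INT-767 4 it was 0.36 (adjusted *p* = 0.334), and in the 7 libraries with a positive length trend alone 0.21 (adjusted *p* = 0.453). *B2m*, the light chain that all class I molecules share, was 1367, 1806, 1330 and 1271 CPM in INT-767 1 to 4 and 971 to 1397 CPM (median 1166) in Vehicle livers. Only INT-767 2 exceeded the Vehicle range, and the log2 fold change was 0.28 ± 0.16 (adjusted *p* = 0.224). Its sign was not stable, since removing the library trends on GC content and length gave -0.39 (adjusted *p* = 0.314). *H2-K1* and *H2-D1* share 3.1% and 5.4% of their 75-base windows with other genes, most of them class I relatives. Over the 10 members, the exact Mann-Whitney *p* was under the threshold for 5, as it was for 23.5% of all tested genes, and with library size only for 8, beside 24.5%.

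Each of the 10 genes had the same sign of change in both sets of libraries. With the term for the 4 libraries, 6 of the 7 class II genes were called lower, all but *H2-DMb1* (-0.53 ± 0.20, adjusted *p* = 0.0565), and *H2-K1* was called higher (0.65 ± 0.15, adjusted *p* = 0.00601). *Ciita* was then at -1.10 ± 0.23 (adjusted *p* = 0.00328), *Cd74* at -0.97 ± 0.20 (adjusted *p* = 0.00335), *H2-Eb1* at -0.84 ± 0.19 (adjusted *p* = 0.00565) and *H2-DMa* at -0.70 ± 0.18 (adjusted *p* = 0.0116). *H2-D1* (0.42 ± 0.16, adjusted *p* = 0.0527) and *B2m* (0.24 ± 0.14, adjusted *p* = 0.227) did not pass. That fit called 14.4% of all tested genes lower and 14.7% higher, so its larger count of members is read against a larger background. Among the 7 libraries with a positive length trend alone, 5 Vehicle and 2 INT-767, *Cd74* was at -0.70 ± 0.24 (adjusted *p* = 0.0778) and *Ciita* at -0.91 ± 0.31 (adjusted *p* = 0.0719), and no member passed, while 6.12% of the genes tested there were called lower and 5.96% higher. Among the other 4 alone, 2 of each group, where 0.693% of genes were called lower and 0.959% higher, the only member that passed was *Cd74* (-1.40 ± 0.28, adjusted *p* = 0.0341), while *Ciita* was at -1.40 ± 0.34 (adjusted *p* = 0.0638).

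**Figure D2:**
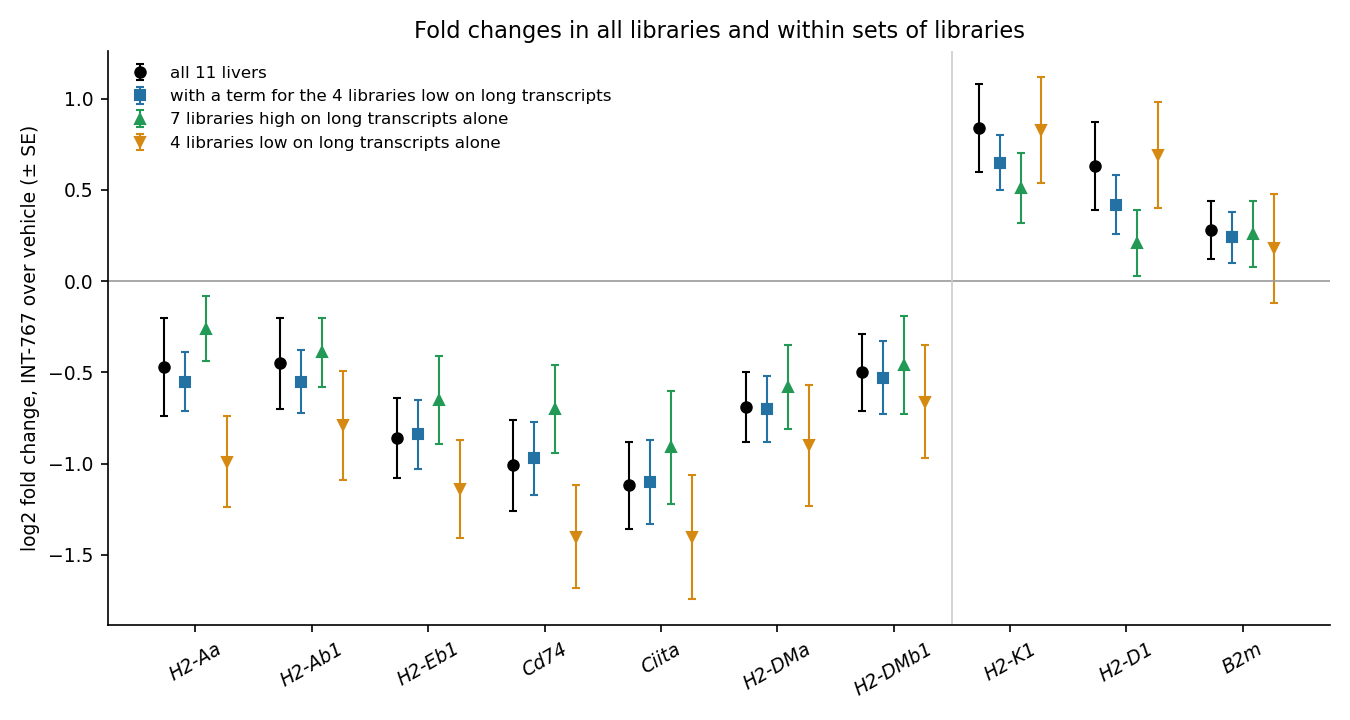
Log2 fold change of INT-767 over Vehicle livers with its standard error for each gene, from all 11 livers (black), with a term for the 4 libraries low on long transcripts (blue), from the other 7 libraries alone (green) and from those 4 alone (orange). Every class II value lies below 0 and every class I value above 0, and the orange class II values lie lowest.

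Levels of different genes were compared per kilobase of the principal transcript, as a mean ± SD of Vehicle livers (n = 7). *B2m* led with 1380 ± 187 CPM per kilobase, followed by *H2-K1* (661 ± 145) and *H2-D1* (338 ± 63.8). *Cd74* (200 ± 51.1) and *H2-Aa* (177 ± 68.3) came next and did not differ beyond their spread, with *Cd74* the higher in 5 of 7 livers. *H2-Ab1* (108 ± 31.6) was below *H2-Aa* and above *H2-Eb1* (64.5 ± 15.8) in all 7 livers, although the ranges over mice overlapped. The H2-DM chains were far lower, at 8.16 ± 2.12 for *H2-DMb1* and 7.11 ± 1.28 for *H2-DMa*, not apart beyond their spread though in this order in 6 of 7 livers, and *Ciita* was lowest at 1.35 ± 0.382. The order of the class II chains depends on the length used: per kilobase of all annotated exon bases, *H2-Eb1* (55.4), *H2-Aa* (52.5) and *H2-Ab1* (51.1) were nearly level in Vehicle livers. In INT-767 livers, *Cd74* was at 99.4 ± 31.8 CPM per kilobase of the principal transcript (n = 4), below *H2-Aa* at 128 ± 24.5, though within the spread.

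Ratios of counts within a mouse do not depend on how libraries are scaled, and the pairs given here were chosen after their values were seen. There were 4.08 reads of *H2-K1* per read of *Cd74* in the median Vehicle liver, with a range of 2.31 to 7.01. INT-767 livers had 6.74, 25.8, 8.24 and 23.2, so that all but INT-767 1 exceeded every Vehicle liver. The ratio of *H2-Eb1* to *Cd74* was steadier, from 0.355 to 0.412 in Vehicle livers and 0.371, 0.458, 0.396 and 0.522 in INT-767 1 to 4. The ratio of *H2-Aa* to *Cd74* followed the libraries more than the groups: it was 1.57 in Vehicle 1, 0.914 in Vehicle 7, 1.45 in INT-767 2 and 1.63 in INT-767 4, and between 0.483 and 0.766 in the other 7 livers. *H2-Aa* has the lowest GC content of the class II transcripts (46.5%, against 57.3% in *H2-Ab1*). The part of GC content or length in these ratios was not tested.

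Among the 7 Vehicle livers alone, *H2-Aa* rose and fell with *H2-Ab1*, its partner chain (Pearson's *r* = 0.95, Spearman's rho = 0.96, exact permutation *p* = 0.00139 and 0.00278, adjusted over 9 relations 0.0125 and 0.025). Without Vehicle 4 and Vehicle 7, the mice farthest from the median of *H2-Ab1*, *r* was 0.92. None of the other 8 members passed. *H2-D1* (*r* = 0.78, adjusted permutation *p* = 0.175) and *H2-K1* (*r* = 0.75, adjusted permutation *p* = 0.175) came next, whereas *Cd74* had *r* = 0.31 and *Ciita* *r* = 0.43, with adjusted permutation *p* of 0.471 and 0.397. Vehicle 1 and Vehicle 7, which stood apart on transcript length, had the 2 highest values of *H2-Ab1*, and the part of that trend in these relations was not tested.

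Across all 11 livers, the 10 tested genes whose log2 level was most like the mean of *H2-Aa*, *H2-Ab1*, *H2-Eb1* and *Cd74* had Pearson's *r* between 0.936 and 0.972, given as a description since the livers share their groups and library trends. They were *Dab1* (an adaptor of reelin signalling), *Ifngr1* (the ligand-binding chain of the interferon-gamma receptor, *r* = 0.971), *Mcm5* (a subunit of the replicative helicase), *Mmgt2*, *Pak1* (a kinase of the actin cytoskeleton), *Nck2* (an adaptor protein), *Aurkb* (a mitotic kinase), *4930427A07Rik*, *Chaf1b* (a chromatin assembly factor) and *Kcnn4* (a potassium channel of immune cells). Of them, *Ifngr1* was the most abundant with 41.5 CPM, and several others were expressed at a few CPM or less.

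The other genes of the class II route were mixed. Of 17 listed, 14 were tested, 2 passed as lower and none as higher, with a median log2 fold change of -0.13. For this and every list below, the shares over all tested genes were 4.68% called lower and 5.04% higher. The term for the 4 libraries raised these shares to 14.4% lower and 14.7% higher. Both that passed act on the invariant chain or on peptide supply in the endosome. *Ctss*, the cathepsin that trims the invariant chain in macrophages and dendritic cells, ranged from 128 to 177 CPM in Vehicle livers and was 102, 65.3, 87.3 and 76.9 CPM in INT-767 1 to 4 (log2 fold change -0.90 ± 0.15, adjusted *p* = 0.00573). *Lgmn*, an endosomal endopeptidase, ranged from 137 to 171 CPM and was 85.4, 63.5, 84.9 and 119 CPM in INT-767 1 to 4 (-0.83, adjusted *p* = 0.0117). The groups did not overlap for either. *Ifi30*, the thiol reductase of this compartment, was at -0.52 (adjusted *p* = 0.0524), also without overlap. The term for the 4 libraries gave 3 of the 14 as lower, beside 14.4% of all tested genes. They were *Ctss*, *Lgmn* and *Ifi30* (-0.49, adjusted *p* = 0.0171). *Ctsl*, the most abundant of the list with 804 ± 122 CPM in Vehicle livers, was at 0.22 (adjusted *p* = 0.495).

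No gene of the complex that binds the X and Y boxes passed. *Rfx5*, *Rfxap* and *Rfxank* had log2 fold changes of -0.22, 0.21 and 0.40 (adjusted *p* = 0.419, 0.412 and 0.104), and *Nfya*, *Nfyb* and *Nfyc* lay between -0.19 and -0.11. *Rfxank* was higher in every INT-767 than in every Vehicle liver, which held for 3.87% of tested genes. *Creb1* was at 0.40 (adjusted *p* = 0.165). *H2-DMb2*, the close relative of *H2-DMb1*, averaged 1.44 CPM in Vehicle and 0.75 CPM in INT-767 livers (-1.01, adjusted *p* = 0.128). *H2-Ea-ps*, the alpha chain partner of *H2-Eb1* that is disrupted in C57BL/6 mice, had 0 counts in all 11 livers, which allows at most 0.175 to 0.422 CPM per library (3 counts, for counting error only).

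Among other class I and class I-like genes, 16 of 17 were tested, 4 passed as higher and 1 as lower, with a median log2 fold change of 0.32. *H2-T23*, the heavy chain of the Qa-1 molecule that NKG2 receptors recognise, ranged from 95.6 to 130 CPM in Vehicle livers and was 151, 193, 179 and 152 CPM in INT-767 1 to 4 (0.63, adjusted *p* = 0.0131), without overlap. *H2-T22*, a ligand of some gamma-delta T cells, was 56.1 ± 5.36 CPM (n = 7) against 80.1 ± 14.2 CPM (n = 4; 0.51, adjusted *p* = 0.0359). *H2-Q7* (1.24, adjusted *p* = 0.0185) and *H2-Q6* (0.95, adjusted *p* = 0.0251), near-identical copies of the Qa-2 family whose reads counting may have split, also passed. *Mr1*, which presents vitamin metabolites to MAIT cells, was lower (-0.66, adjusted *p* = 0.0391). *H2-Q10*, a class I molecule secreted by the liver and the most abundant of this list (2660 ± 664 CPM in Vehicle livers), was at 0.38 (adjusted *p* = 0.303). *Fcgrt*, *Cd1d1* and *H2-Q1* did not pass either, at 0.26, 0.02 and 1.22 (adjusted *p* = 0.299, 0.946 and 0.0847). The 5 calls held with the term for the 4 libraries, and *H2-Q1* was then called higher too (0.99, adjusted *p* = 0.00173).

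Of the 14 genes that make and load class I peptides, all tested, 1 passed as higher and none as lower. Over all tested genes, 5.04% were called higher, and 14.7% with the term for the 4 libraries. The list's median was 0.03 on the log2 scale. *Erap1*, the aminopeptidase that trims peptides in the endoplasmic reticulum, was 91.3 ± 27.5 CPM in Vehicle (n = 7) and 157 ± 33.8 CPM in INT-767 livers (n = 4; 0.79, adjusted *p* = 0.045), and it alone was called with the term for the 4 libraries (0.68, adjusted *p* = 0.00392). The peptide pump genes *Tap1* and *Tap2* were at -0.32 and -0.48 (adjusted *p* = 0.257 and 0.224), the immunoproteasome genes *Psmb8*, *Psmb9* and *Psmb10* at -0.15, 0.51 and 0.16, and *Nlrc5*, the class I counterpart of *Ciita*, at -0.18 (adjusted *p* = 0.344). The chaperones *Calr*, *Canx* and *Pdia3* and *Tapbp*, the most abundant of the genes that did not pass, lay between -0.24 and 0.27.

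Interferon-gamma is the classical inducer of *Ciita*. Of 9 genes of its signalling, 7 were tested and none passed, with a median of -0.02. *Ifng* itself had 7 reads in all livers together and 0 in 7 of the 11, which sets no direction. *Jak1*, *Irf1* and *Ifngr2* were at 0.15, 0.06 and -0.02, and *Ifngr1* at -0.40 (adjusted *p* = 0.0935). *Irf8*, a factor of macrophages and dendritic cells, was at -0.57 (adjusted *p* = 0.0844). With the term for the 4 libraries, 2 of the 7 were called lower, *Ifngr1* (-0.43, adjusted *p* = 0.0243) and *Irf8* (-0.57, adjusted *p* = 0.0334). Over all tested genes, 14.4% were called lower with that term. Of 6 costimulation genes, 4 were tested and none passed with or without that term (median -0.39). *Cd86*, the most abundant, averaged 6.73 CPM in Vehicle and 5.03 CPM in INT-767 livers (-0.40), and *Cd274*, *Icosl* and *Cd40* were at -0.61, -0.37 and -0.23.

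In whole liver, fewer cells of a type and less RNA per cell cannot be told apart, so the markers of cells that carry class II were measured beside the members. Of 9 macrophage and monocyte markers, 8 were tested and 4 passed as lower, with a median log2 fold change of -0.89. *Csf1r*, the receptor for macrophage colony-stimulating factor, ranged from 72.8 to 132 CPM in Vehicle livers and was 44.3, 40.2, 43.7 and 53.6 CPM in INT-767 1 to 4 (-1.14, adjusted *p* = 0.00498). *Cd68* (-1.16, adjusted *p* = 0.00943), *Itgam* (-1.73, adjusted *p* = 0.00498) and *Cx3cr1* (-1.69, adjusted *p* = 0.00955) fell without overlap as well. *Adgre1*, *Ccr2* and the most abundant gene of the list, *Lyz2*, did not pass (-0.63, -0.16 and -0.40). With the term for the 4 libraries, 5 of the 8 were called lower, *Adgre1* being the addition (-0.72, adjusted *p* = 0.00604). In that fit 14.4% of all tested genes were called lower. Summed over the list, levels were 664, 422, 426, 449, 542, 581 and 652 CPM in Vehicle 1 to 7 and 315, 240, 285 and 579 CPM in INT-767 1 to 4. The sum of INT-767 4 lay within the Vehicle range and was mostly *Lyz2* (398 CPM), which was also high in Vehicle 1 (443 CPM) and Vehicle 7 (416 CPM). Its *Csf1r* (53.6 CPM), *Cd68* (15.3 CPM), *Itgam* (5.01 CPM) and *Cx3cr1* (2.1 CPM) were below every Vehicle liver.

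The number of *Cd74* reads per read of *Csf1r*, another pair chosen after values were seen, ranged from 2.31 to 3.56 in Vehicle livers and was 3.75, 2.35, 4.32 and 2.07 in INT-767 1 to 4. Of the treated livers, 2 lay above the Vehicle range, 1 inside it and 1 below it, beside log2 fold changes of -1.01 for *Cd74* and -1.14 for *Csf1r*. Against *Ptprc*, the common leukocyte antigen, *Cd74* reads stood at 4.14 to 14.1 in Vehicle and at 7.86, 4.09, 8.95 and 2.74 in INT-767 livers. The part of macrophage number in the class II differences was not tested.

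**Figure D3:**
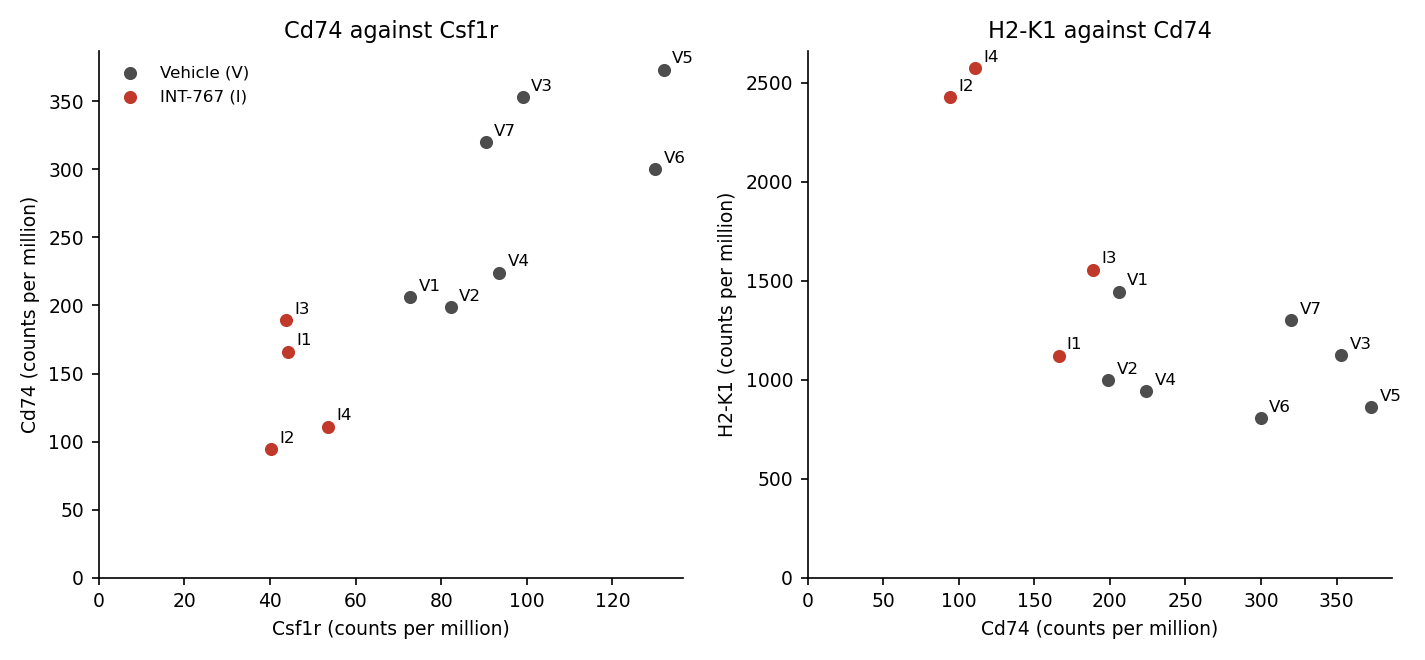
Left, *Cd74* against the macrophage marker *Csf1r*, and right, the class I gene *H2-K1* against *Cd74*, each in CPM in single livers; grey points V1 to V7 are Vehicle and red points I1 to I4 are INT-767 livers. INT-767 livers have the 4 lowest values of both *Csf1r* and *Cd74*, and I2 and I4 the 2 highest of *H2-K1*.

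Among 5 general leukocyte markers, *Laptm5* was lower (-1.19, adjusted *p* = 0.0165), while *Ptprc* (-0.42, adjusted *p* = 0.246), *Coro1a* (-0.15), *Cd53* (-0.14) and *Cd52* (-0.16) did not pass. *Ptprc* was called lower once the term for the 4 libraries was added (-0.55, adjusted *p* = 0.019). Their summed level was 121 to 187 CPM (median 168) in Vehicle livers and 88.7, 88.6, 81 and 184 CPM in INT-767 1 to 4, again with INT-767 4 in the Vehicle range. Of 8 dendritic cell markers, 6 were tested and none passed (median -0.52). The most abundant, *Itgax*, was at -1.23 (adjusted *p* = 0.0984), and *Ccr7* and *Batf3* were at -1.04 and -0.72. Only *Itgax* was called lower with the term for the 4 libraries (-1.14, adjusted *p* = 0.00902), beside 14.4% of all tested genes. *Zbtb46* was at -0.31, *Flt3* at -0.08 and *Clec9a*, a marker of cross-presenting dendritic cells, at 0.12. The list summed to 30.4 to 51.5 CPM in Vehicle livers and 29.8, 18.2, 26.3 and 22.3 CPM in INT-767 1 to 4.

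Of 6 Kupffer cell markers, all tested, none passed (median -0.54). Their sum was 277 to 394 CPM in Vehicle livers and 205, 308, 174 and 598 CPM in INT-767 1 to 4, led by *Cd5l* (-0.03, adjusted *p* = 0.947), and *Clec4f*, restricted to these resident macrophages, was at 0.53 (adjusted *p* = 0.384), *Vsig4* at -0.55 and *Folr2* at -0.60. Adding the term for the 4 libraries, *Vsig4* was called lower (-0.61, adjusted *p* = 0.0355), beside 14.4% of all tested genes. B and T cell markers were low: the most abundant averaged 1.56 CPM (*Cd79b*, at -1.10) and 1.39 CPM (*Trbc2*, at 0.55). B cell markers summed to 2.93 to 18.9 CPM in Vehicle livers, with the highest sum in Vehicle 6, and 3.43, 4.97, 4.64 and 7.71 CPM in INT-767 1 to 4, and T cell markers to 4.1 to 9.12 CPM and 3.68, 6.35, 4.22 and 9.13 CPM. None of these B or T cell markers was at 0 in all livers, and none passed, but with the term for the 4 libraries *Cd3e* was called lower (-1.27, adjusted *p* = 0.0495).

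Tissue identity was clear, with *Alb*, the hepatocyte product albumin, at 42969 ± 4295 CPM in Vehicle (n = 7) and 63823 ± 19472 CPM in INT-767 livers (n = 4; 0.57, adjusted *p* = 0.0891). None of 7 hepatocyte markers passed in all 11 livers, but 3 were called higher with the term for the 4 libraries. They were *Alb* (0.61, adjusted *p* = 0.0334), *Apoa1* (0.49, adjusted *p* = 0.0444) and *Tat* (1.05, adjusted *p* = 0.0214). That fit called 14.7% of all tested genes higher. The list's median over all 11 livers was 0.22, with *Serpina1c* at 0.22 and *Hnf4a* at 0.16. Of the others, *Cyp2e1*, an ethanol-oxidising cytochrome P450, averaged 3944 CPM in Vehicle and 1971 CPM in INT-767 livers (adjusted *p* = 0.162) and *Ttr*, transthyretin, was at -0.32 (adjusted *p* = 0.208). The list's sum was 52081 to 70536 CPM in Vehicle livers and 95477, 98012, 82590 and 53599 CPM in INT-767 1 to 4. INT-767 4, with the highest *H2-K1*, had the lowest sum of its group, mostly through *Alb* (37713 CPM), while its *Apoa1* (10671 CPM) was above every Vehicle liver. The part of hepatocyte RNA in the class I differences was not tested. Of the remaining lists, stellate cell and myofibroblast markers had 2 of 7 called lower (*Col1a1* at -2.96 and *Col1a2* at -2.35, the chains of type I collagen). The most abundant of that list, *Dcn*, averaged 471 CPM in Vehicle and 549 CPM in INT-767 livers (0.22, adjusted *p* = 0.441), *Lrat*, which makes the retinyl esters of stellate cells, at 0.05, and *Reln* and *Des* at -0.70 and -0.47, none past the threshold. None of 5 cholangiocyte, 6 sinusoidal endothelial or 2 tested neutrophil markers passed. The most abundant were *Spp1* (-0.44), *Sox9* (-0.61), *Epcam* (-0.67) and *Krt7* (-0.49) for cholangiocytes, *Stab2* (-0.97), *Fcgr2b* (-0.16), *Kdr* (-0.29), *Lyve1* (-0.20) and *Clec4g* (0.21) for sinusoidal endothelium (with *Oit3* at 0.10 and a list median of -0.18), and *S100a9* (0.46) and *S100a8* (0.31) for neutrophils. With the term for the 4 libraries these counts were 3 lower among stellate cell, 2 lower among cholangiocyte, 1 lower among sinusoidal endothelial and 0 among neutrophil markers. They are read against 14.4% of all tested genes called lower in that fit.

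**Figure D4:**
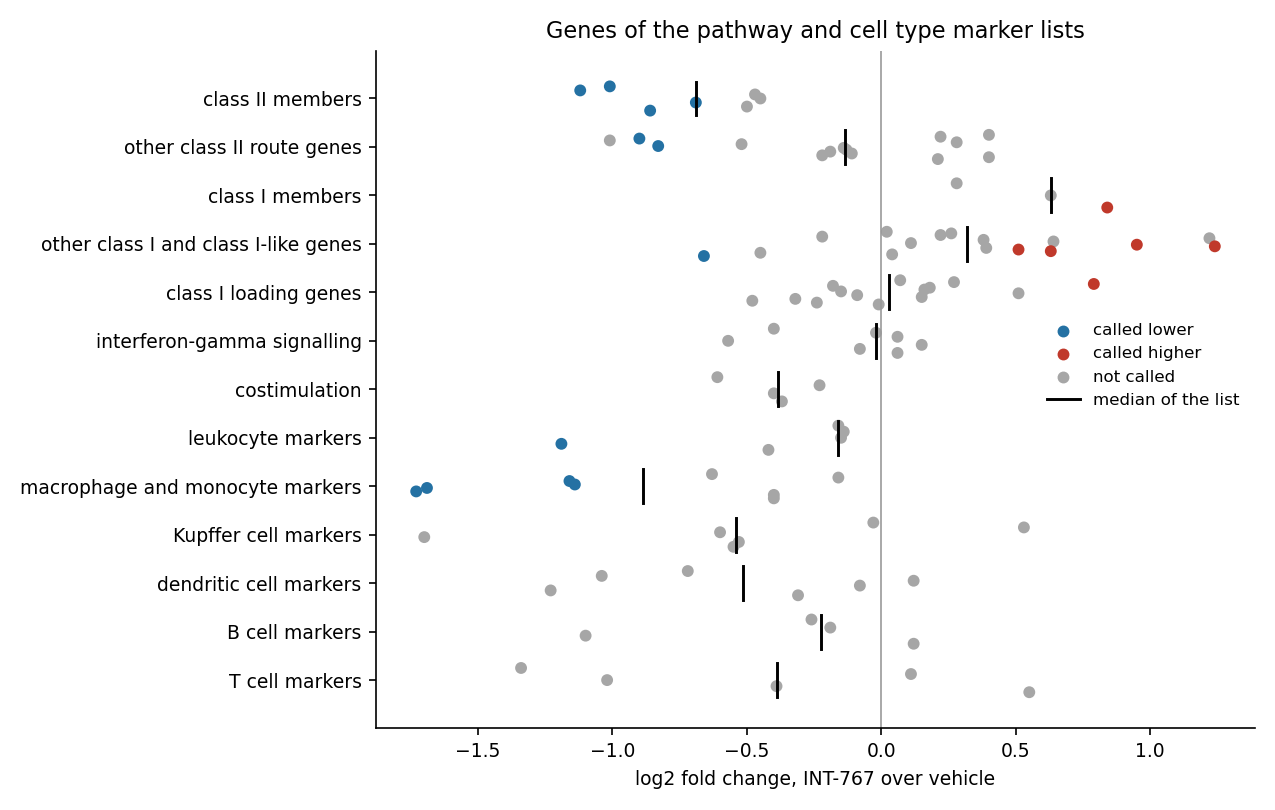
Log2 fold change of INT-767 over Vehicle livers for the tested genes of each list, blue where called lower, red where called higher and grey where not called, with a black bar at the list's median. The class II members and the macrophage and monocyte markers hold 4 blue points each, and red points occur only in the 3 class I lists of those drawn.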

How the data were processed

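Per the labels, RNA was extracted from the left lateral lobe of 11 livers, and libraries were made with a stranded polyA kit and sequenced for 75 cycles. Per the labels and the study's methods, the authors aligned reads to GRCm38 (mm10) with STAR, for which the submitters' processing notes give version 2.4.0 and the study's supplementary methods a later one, and deposited raw counts per Ensembl gene (release 84). Which counter was used, and whether by strand, is not given in the sources used here. Raw counts were tested with edgeR 4.0.16 (TMM scaling, filterByExpr, robust quasi-likelihood fit, treatment as the only term) across 13880 genes, and *p*-values were adjusted by Benjamini-Hochberg over all of them, with a threshold of 0.05. CPM are TMM-scaled. For each member, CPM were set against each other in an exact Mann-Whitney test, two-sided, over all 330 assignments of mice. On simulated counts, edgeR recovered 97.5% of 200 genes changed by 2 on the log2 scale and called 7 others of 13674. The log2 fold changes of the members lay between -1.12 and 0.84, and recovery at that size was not tested.

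Alternatives were other scalings and filters, DESeq2 1.42.0, limma-voom (limma 3.58.1), a replicate block, a threshold of 0.01 and each mouse left out. Added once the data had been seen were offsets for GC content and length (lowess, span 0.3), a term for the 4 libraries low on long transcripts, and each set of libraries alone. The members and the gene lists were chosen with earlier results of these data known, and a list's count is not independent evidence. The genes named are the 10 members, the called genes of each list and the most abundant of its others (with some further list genes named after their values were seen), and the 10 genes most like the class II chains in level. Positions and exons are from GENCODE M21, and promoters from RefSeq, which covered 7 of the 10 members. With 7 and 4 mice, precision is set by the spread between mice, and intervals on counts cover counting error only. A few genes and 1 motif of the lists are not reported here by name.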

Additional observations from a re-analysis of the deposited data

Results flagged for a closer look

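*Ciita* in Vehicle 5 (12.7 CPM) lay far from the other 6 Vehicle livers, by Dixon's ratio of the gap to the range. It was the only such value in 20 groups examined (10 genes in 2 groups), where chance gives about 1 in 20. Vehicle 5 also had the highest *Cd74* (373 CPM) and *Csf1r* (132 CPM) of the Vehicle livers, and *Ciita* was called lower without it as well.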

How the results depend on the processing

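Of the 240 alternative values of single genes, 185 kept their direction and their side of the threshold, 50 fell below it, 3 rose past it and 2 reversed. The reversals were *B2m* with the GC content and length offset (-0.39) and with that offset and the replicate block (-0.40). The count of members called lower, 4 in all 11 livers, was 0 with the replicate block, 0 with the offset and the block, 0 in the 7 libraries with a positive length trend, 1 in the other 4 and 0 at a threshold of 0.01. Leaving out 1 mouse gave 0 to 4 (0 without INT-767 2, and 1 without Vehicle 3, Vehicle 5, Vehicle 6 or INT-767 4). The count called higher, 1, was 0 with library size only, upper-quartile factors, at least 10 counts in every mouse, limma-voom, the replicate block, the offset and the block, either set of libraries alone and a threshold of 0.01, and 0 to 2 without 1 mouse. The number of members with an exact Mann-Whitney *p* under 0.05, 5 on TMM-scaled levels, was 8 with library size only (23.5% and 24.5% of all tested genes had such a *p*), which shifted the median of all tested genes to -0.22, and 4 to 5 without 1 mouse. The replicate block called 0 of 13880 genes (1347 had an unadjusted *p* under 0.05). Vehicle 5, Vehicle 6 and Vehicle 7 have no INT-767 liver of their number, so its fold changes rest on livers 1 to 4 of each group. It thus had fewer mice to compare than the main fit. The mice share only a number: same-numbered deviations correlated at -0.69, 0.215, 0.148 and -0.482, and no liver from 1 to 4 correlated best with its own number. All genes called lower or higher under each setting ranged widely around the 649 and 700 of the main fit. They were 1368 and 1443 with DESeq2, 1026 and 331 with library size only, and 812 and 467 with upper-quartile factors. The length term gave 1999 and 2039, the 7 libraries alone 879 and 856, and the 4 libraries alone 94 and 130. Without 1 mouse they ranged from 110 and 164 (INT-767 2 left out) to 1370 and 1906 (Vehicle 1 left out). The cause of these differences was not tested. *Ciita* (22 to 175 reads) and the H2-DM chains (39 to 251 reads) rest on the smallest counts.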
